A study of Aspergillus luchuensis with 9 samples.

Results

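Gene expression was compared directly between 2 deletion strains, ΔlaeA and ΔhepA, each with 3 RNA-seq libraries. Both are strains of Aspergillus luchuensis mut. kawachii, a white koji mould with which starch is saccharified for shochu. A control strain of the same background, also with 3 libraries, is shown beside the values and took no part in the test. So 6 of the 9 libraries entered the comparison. All genes with a value of at least 1 FPKM (an expression level normalised to transcript length and library total) in at least 3 of these 6 libraries were tested, which left 9673 of 12941 genes. The labels give neither the growth conditions of the cultures nor the other alleles of the strains. Nor do they state that the libraries of a strain are independent cultures. The p-values thus reflect library-to-library spread, which may be technical.

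HepA is the homologue, in Aspergillus, of heterochromatin protein 1, which binds methylated histone H3 and keeps chromatin compact. LaeA is a nuclear, methyltransferase-like protein that works with the velvet proteins and is known in Aspergillus as a global activator of secondary metabolite gene clusters and a regulator of development. In A. nidulans, loss of HepA is known to raise the expression of some secondary metabolite clusters, whereas loss of LaeA is known to silence many of them, so a direct comparison asks where the expression profiles of the deletion strains part. Neither hepA nor laeA is a gene symbol in the reference table used, so the deleted loci were not settled here. Where a gene was near 0 throughout a deletion strain, removal of the gene and lower expression cannot be told apart.

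With 3 libraries a side, few genes passed the test between the strains, which does not show that few genes differed. The largest differences went to single genes and to 2 blocks of neighbouring genes. AKAW2_80200S was high in ΔlaeA and near 0 in ΔhepA. AKAW2_81091S, AKAW2_10350A and a pair of short genes on chromosome 2 were low or listed at 0 in ΔlaeA and expressed in ΔhepA. A block on chromosome 8 that holds nscA and nscC, and a block on chromosome 5, lay lower in every ΔlaeA library than in any ΔhepA library, though no gene of either block passed the test. The conidiation gene abaA lay lower and the conidiation-associated gene CON10 higher in ΔlaeA, both without overlap and both short of the threshold.

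The libraries were not separated by strain alone. Principal component 1 of the log2(FPKM + 1) values held 53% of the variance of the 6 libraries. On it ΔlaeA replicate 1 (37.9) lay beside ΔhepA replicates 1 and 3 (49 and 29.7). ΔlaeA replicates 2 and 3 (-35.7 and -65.5) lay on the other side with ΔhepA replicate 2 (-15.5), and these 3 are called the libraries that lay apart. The second component, with 18.7% of the variance, placed ΔlaeA replicates 1 to 3 at or above -3.4 and the ΔhepA libraries below them. The mitochondrial genome's share of all FPKM was 2.85% in ΔhepA replicate 2 and 3.04% and 7% in ΔlaeA replicates 2 and 3, against 1.09% to 1.67% in the other 3 libraries. Pearson correlations between libraries over the tested genes ran from 0.898 to 0.956 within ΔlaeA and from 0.935 to 0.97 within ΔhepA. Across the strains they ran from 0.885 to 0.966. A pair of libraries from different strains could thus be as alike as a pair from 1 strain, though the highest value, 0.97, lay within ΔhepA. FPKM sums ran from 1368965 to 1716065 per library, and read totals were not used here. Values of low genes therefore come with an unknown counting error.

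**Figure D1:**
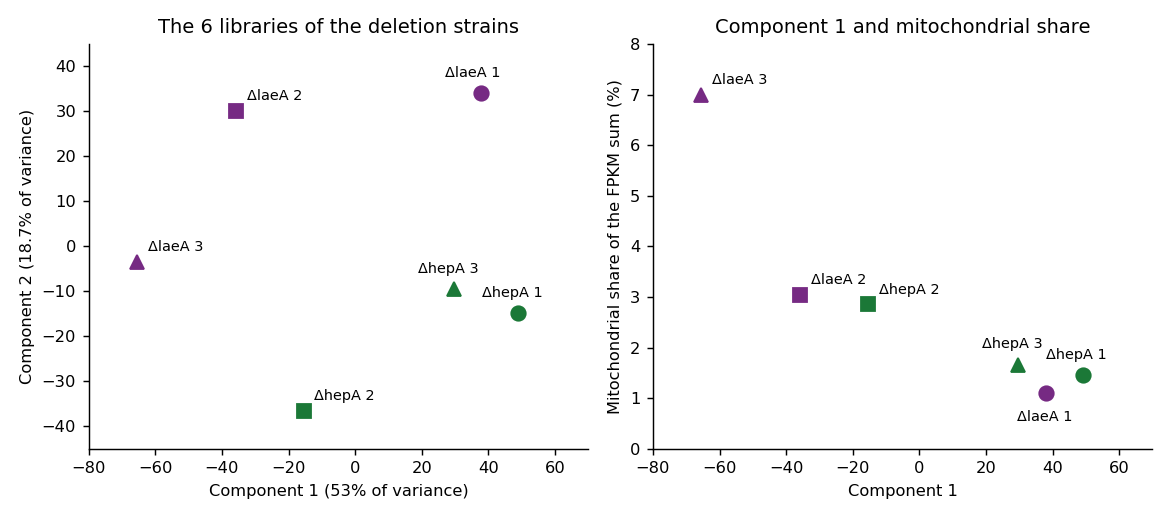
The 6 libraries of the deletion strains on the first 2 principal components of log2(FPKM + 1) over the tested genes (left), and component 1 against the share of mitochondrially encoded genes in the FPKM sum, in percent (right). Each point is 1 library, coloured by strain and shaped by replicate. ΔlaeA replicate 1 lies with ΔhepA replicates 1 and 3, and the mitochondrial share is highest, at 7%, in ΔlaeA replicate 3.

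Across the 9673 genes, limma on log2(FPKM + 1) called 5 genes at an adjusted p under 0.05, which is 0.0517% of the genes tested. Of these, 1 was higher in ΔlaeA (0.0103%) and 4 were lower (0.0414%). Without adjustment, 739 genes (7.64%) had p under 0.05, of which 430 (4.45%) were higher and 309 (3.19%) lower in ΔlaeA. The groups did not overlap in 1200 genes (12.4%), 747 of them higher (7.72%) and 453 lower (4.68%) in ΔlaeA. For 351 genes (3.63%) the groups did not overlap and the means differed by at least 1 on the log2 scale, 177 of them higher (1.83%) and 174 lower (1.8%). The median difference over all tested genes was -0.05, with 5245 genes (54.2%) below 0 and 4428 (45.8%) above. The count of calls turned on single libraries: it was 1, 0 and 2 without ΔhepA replicate 1, 2 or 3, and 78, 0 and 0 without ΔlaeA replicate 1, 2 or 3. The 78 calls made without ΔlaeA replicate 1 comprised 46 higher and 32 lower genes. That fit set the 2 ΔlaeA libraries with the highest mitochondrial shares, 3.04% and 7%, against the 3 ΔhepA libraries. The part of this library difference in the calls was not tested.

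AKAW2_80200S, a gene of chromosome 8 (589285 to 590334) with no symbol, was the called gene that was higher in ΔlaeA. Its FPKM was 0.41, 0.48 and 1.31 in ΔhepA replicates 1 to 3, 71.7, 34.8 and 26.2 in ΔlaeA, and 69.5, 54.6 and 64.3 in the control. All ΔlaeA libraries stood far above all ΔhepA libraries, with replicate 1 just above the control range and replicates 2 and 3 below it. The difference of mean log2(FPKM + 1) was 4.61 (SE 0.45, n = 3 and 3; limma adjusted p = 0.0392). With median-ratio scaling it was 4.63 and AKAW2_80200S was the sole call (limma adjusted p = 0.0196). Among the 1526 genes of like length, the smallest FPKM above 0 was 0.13, 0.24 and 0.23 in ΔhepA replicates 1 to 3, so the ΔhepA values lay within a few steps of the least that could be measured. The call was lost in 5 of the 6 fits that left out a library, with limma adjusted p-values up to 0.217.

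AKAW2_81091S, also on chromosome 8 (3212167 to 3213301), was lower in ΔlaeA. Its FPKM was 39.9, 62.8 and 47.9 in ΔhepA, 6.4, 2.26 and 4.79 in ΔlaeA, and 198, 57.6 and 108 in the control. The strains did not overlap, and the ΔlaeA libraries also lay below each control library. The difference was -3.28 (SE 0.40; limma adjusted p = 0.0497). The call was lost in 5 of the 6 fits that left out a library (limma adjusted p up to 0.347) and with median-ratio scaling (limma adjusted p = 0.0815), while the difference stayed between -3.54 and -2.94. Its neighbour AKAW2_81090A, not called, had 17.1, 23.4 and 25.1 FPKM in ΔhepA against 1.21, 0.89 and 4.54 in ΔlaeA, with 196, 47.4 and 93.1 in the control. The difference there was -2.98 (SE 0.46; limma adjusted p = 0.134), again with no overlap. In both neighbours the control mean was the highest and the ΔlaeA mean the lowest. Next to them, AKAW2_81089A had 563, 662 and 769 FPKM in ΔhepA and 569, 651 and 410 in ΔlaeA, which overlapped. AKAW2_81092S on the other side had 10.7, 12.3 and 12 against 10, 26.4 and 18.4, which overlapped too. The differences were -0.30 and 0.51. Farther out, AKAW2_81088S had 32.7, 39.9 and 33.1 FPKM in ΔhepA, 15.4, 16.2 and 25.9 in ΔlaeA and 361, 76.5 and 125 in the control, without overlap between the deletion strains (-0.88, limma adjusted p = 0.598). AKAW2_81087A had 40.8, 19.1 and 39.5 FPKM in ΔhepA and 29.1, 11.1 and 7.94 in ΔlaeA, which overlapped (-1.13, limma adjusted p = 0.653), below the control at 103, 89.2 and 98.3. These 4 flanking genes were chosen after their values were seen.

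AKAW2_10350A on chromosome 1 (1026412 to 1027642) was expressed in ΔhepA and near 0 in ΔlaeA. Its FPKM was 8.06, 10.1 and 13.5 in ΔhepA, 0.24, 0.7 and 0 in ΔlaeA, and 15.2, 22 and 10.4 in the control. The ΔlaeA libraries stood apart from all of the others, and the ΔhepA libraries lay below the control range or at its lower end. The difference was -3.14 (SE 0.37; limma adjusted p = 0.0497). This call too was lost in 5 of the 6 fits that left out a library (limma adjusted p up to 0.347) and with median-ratio scaling (limma adjusted p = 0.0815). AKAW2_10350A passed the filter only through the ΔhepA libraries, where it was high, and with no filter the limma adjusted p was 0.0601.

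The other called genes were short and were listed at 0 in all ΔlaeA libraries. Among the 6 libraries they reached 1 FPKM in those of ΔhepA alone, so they passed the filter only through the strain where they were high. Their values of 0 in ΔlaeA have no spread. With no filter the limma adjusted p was 0.0601 for each. AKAW2_21600A (chromosome 2, 4904776 to 4905117) had 26.8, 72.5 and 14.6 FPKM in ΔhepA, 0 in all 3 ΔlaeA libraries, and 0, 0 and 20 in the control. Its difference was -4.99 on the log2(FPKM + 1) scale (SE 0.55; limma adjusted p = 0.0392). AKAW2_21550S (chromosome 2, 4762968 to 4763310) had 21.2, 17.1 and 7.73 FPKM in ΔhepA, 0 in each ΔlaeA library, and 9.08, 0 and 21.2 in the control. Its difference was -3.93 (SE 0.42; limma adjusted p = 0.0392). Each of the 2 calls was lost in 4 of the 6 fits that left out a library, with limma adjusted p-values up to 0.132 for AKAW2_21600A and 0.245 for AKAW2_21550S. With median-ratio scaling the limma adjusted p-values were 0.0821 and 0.0815. Both genes were also listed at 0 in at least 1 control library, so a 0 is not particular to ΔlaeA in these data. Genes of this length are measured in coarse steps: among 431 genes of like length, the smallest FPKM above 0 was 1.25 to 1.47 in the ΔhepA libraries and 1.45, 1.95 and 2.43 in ΔlaeA replicates 1 to 3. The steps were coarsest in ΔlaeA replicates 2 and 3, and the part of this in the calls was not tested. No other annotated gene overlaps any of the 5 called genes.

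Without a call but just past the threshold came more short genes with the same pattern. AKAW2_60103A, 243 bases long, had 12.9, 10.1 and 46.3 FPKM in ΔhepA, 0 in each ΔlaeA library and 5.25, 11.6 and 8.53 in the control (-4.28, limma adjusted p = 0.0612). AKAW2_40419S, of 237 bases, had 4.7, 11.1 and 5.07 FPKM in ΔhepA and 0 in each ΔlaeA library (-2.90, limma adjusted p = 0.0693). Both genes passed the filter only through the ΔhepA libraries. In all, 12 of the 9673 tested genes were listed at 0 in all ΔlaeA libraries and above 0 in each ΔhepA library, and 6 showed the reverse. Zeros were also more frequent in the ΔlaeA libraries over all 12941 genes. There, 2106, 1882 and 1993 genes were at 0 in ΔhepA replicates 1 to 3, and 2139, 2225 and 2592 in ΔlaeA. The median length of the 12 was 380 bases against 1371 for all tested genes, and 9 of the 12 were at 0 in some control library.

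**Figure D2:**
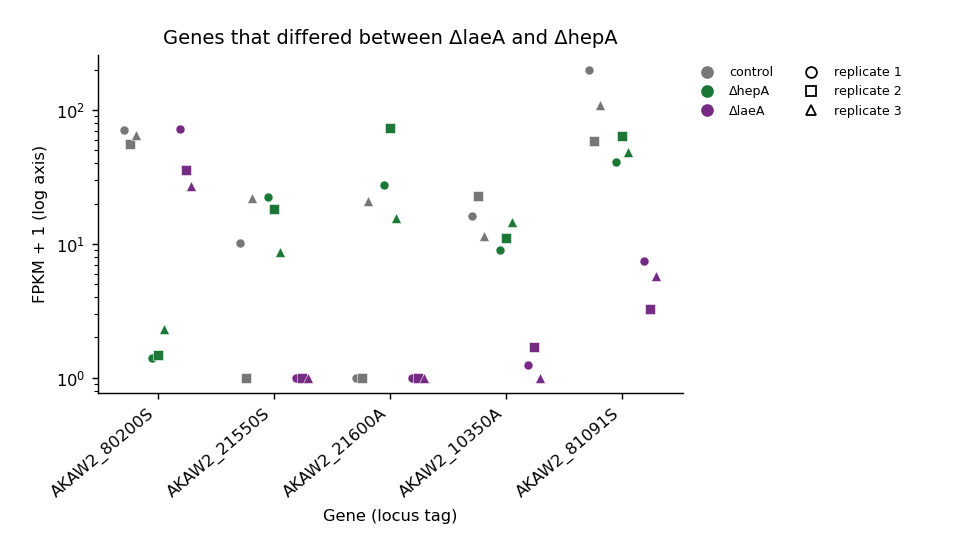
FPKM + 1 on a log axis for the 5 genes that passed limma's adjusted p of 0.05 between ΔlaeA and ΔhepA, by library, with the control beside them. Each point is 1 library. AKAW2_80200S is near the floor in ΔhepA, and the other 4 genes are low or at 0 in ΔlaeA.

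The next 4 genes had no symbol, were higher in ΔlaeA without overlap and were not called. Their p-values were the smallest among such genes with a group mean of at least 5 FPKM. AKAW2_51607S on chromosome 5 had 79, 69.5 and 98 FPKM in ΔlaeA against 23.4, 16.8 and 22.1 in ΔhepA, with 29.6, 35 and 33.6 in the control (1.93, SE 0.29, limma adjusted p = 0.123). All ΔlaeA libraries lay above all ΔhepA and control libraries. AKAW2_51965S had 5.68, 7.56 and 6.57 FPKM in ΔlaeA and 1.27, 0.29 and 0.54 in ΔhepA (2.20, limma adjusted p = 0.158). AKAW2_61168A had 6.6, 30.2 and 21 FPKM in ΔlaeA and 1.97, 1.13 and 1.05 in ΔhepA (2.88, limma adjusted p = 0.245). AKAW2_50629S differed in where the control lay: it had 8.74, 8.71 and 6.26 FPKM in ΔlaeA, 0.48, 1.67 and 1.02 in ΔhepA and 4.24, 5.04 and 6.24 in the control, nearer to ΔlaeA (2.14, limma adjusted p = 0.167).

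Runs of at least 4 neighbouring tested genes that all differed in the same direction, by at least 1 on the log2 scale and without overlap, occurred at 2 places, both lower in ΔlaeA. The first run held 5 genes of chromosome 8, AKAW2_80647S to AKAW2_80651S (1798483 to 1810896), among them nscA and nscC. These symbols are those of the neosartoricin cluster of other Aspergillus species, where nscA encodes the polyketide synthase, nscC a FAD-dependent monooxygenase and nscR a pathway transcription factor. The metabolite was not measured here. The median difference over the 5 genes was -4.50, with a range from -4.95 to -2.71, and limma adjusted p-values from 0.108 to 0.575.

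nscA had 17.3, 45.1 and 65 FPKM in ΔhepA, 0.82, 3.6 and 0.9 in ΔlaeA, and 1.79, 1.14 and 5.44 in the control. Its difference was -3.93 (SE 0.57; limma adjusted p = 0.108). nscC had 44.5, 214 and 238 FPKM in ΔhepA, 2.21, 17 and 0.38 in ΔlaeA, and 5.41, 3.49 and 16.9 in the control (-4.95, SE 0.96, limma adjusted p = 0.265). In both genes the ΔhepA libraries stood above the 6 other libraries, and the control lay nearer to ΔlaeA. AKAW2_80649S, between them, reached the highest FPKM of the run, 184, 533 and 883 in ΔhepA against 8.49, 45.7 and 10 in ΔlaeA and 12.6, 9.46 and 56 in the control (-4.71, limma adjusted p = 0.134). AKAW2_80651S had 49.9, 198 and 240 FPKM in ΔhepA against 2.42, 14.6 and 2.97 in ΔlaeA (-4.50, limma adjusted p = 0.158). These genes shared a pattern over the libraries: ΔhepA replicate 1 was the lowest of its strain and ΔlaeA replicate 2 the highest of its own. AKAW2_80647S at the edge was less even, with 22.4, 18.1 and 194 FPKM in ΔhepA and 1.62, 8.89 and 11 in ΔlaeA (-2.71, limma adjusted p = 0.575).

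The run ended at nscR, the next gene. nscR had 60.2, 56.6 and 49.1 FPKM in ΔhepA, 43.4, 94 and 121 in ΔlaeA, and 77.2, 28.8 and 33.8 in the control. The strains overlapped, and the difference was 0.51 (SE 0.39; limma adjusted p = 0.748), with a turn to -0.32 without the 3 libraries that lay apart. Thus the gene with the symbol of a pathway regulator did not share the pattern of the 5 genes beside it. On the other side AKAW2_80645A had 3.44, 5.81 and 3.16 FPKM in ΔhepA and 1.71, 3.6 and 0.91 in ΔlaeA, which overlapped (-0.80, limma adjusted p = 0.686). Without ΔhepA replicate 2 and ΔlaeA replicates 2 and 3, the median difference of the run was -5.02, and among those 3 libraries alone it was -4.56.

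The second run held 6 genes of chromosome 5, AKAW2_50705A to AKAW2_50710A (2151567 to 2173098), none with a symbol. The median difference was -2.48, with a range from -2.76 to -2.09 and limma adjusted p-values from 0.282 to 0.437. AKAW2_50708A had 975, 309 and 213 FPKM in ΔhepA, 37.9, 77.3 and 69.4 in ΔlaeA, and 30.5, 85.3 and 129 in the control. AKAW2_50709S had 686, 264 and 215 FPKM in ΔhepA, 45.3, 100 and 68.9 in ΔlaeA, and 34.6, 78.1 and 80.8 in the control. In both, all ΔhepA libraries exceeded all others, and ΔlaeA and the control overlapped. AKAW2_50707S, the longest gene of the run at 11940 bases, had 26.7, 11.9 and 5.18 FPKM in ΔhepA, 1.49, 1.96 and 0.81 in ΔlaeA, and 0.93, 1.49 and 1.34 in the control. AKAW2_50705A had 28.5, 10 and 5.09 FPKM in ΔhepA and 1.13, 2.8 and 0.36 in ΔlaeA. In these 4 genes ΔhepA replicate 1 was the highest of its strain and replicate 3 the lowest, whereas in the chromosome 8 run replicate 1 was the lowest for all genes except AKAW2_80647S.

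AKAW2_50706S, a gene of 354 bases, was listed at 0 in all control libraries and in ΔlaeA replicates 1 and 2. It had 5.78, 6.63 and 4.6 FPKM in ΔhepA and 2.78 in ΔlaeA replicate 3. AKAW2_50710A closed the run with 161, 44.2 and 43.3 FPKM in ΔhepA against 10.2, 15.1 and 4.87 in ΔlaeA. Beyond it, in genes chosen after their values were seen, AKAW2_50711S did not share the pattern (38.2, 29.4 and 31.6 FPKM in ΔhepA, 27.5, 30.3 and 29.8 in ΔlaeA). AKAW2_50712A did, with 53.6, 24.5 and 14 FPKM in ΔhepA against 3.45, 6 and 2.35 in ΔlaeA (-2.55, limma adjusted p = 0.289). AKAW2_50713S and AKAW2_50714S after it were also lower on the mean in ΔlaeA, but overlapped (-1.96 and -1.23, limma adjusted p = 0.598 and 0.622). Without the 3 libraries that lay apart the median of the run was -2.79, and among those 3 alone -2.14. No other annotated gene overlaps a member of either run.

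**Figure D3:**
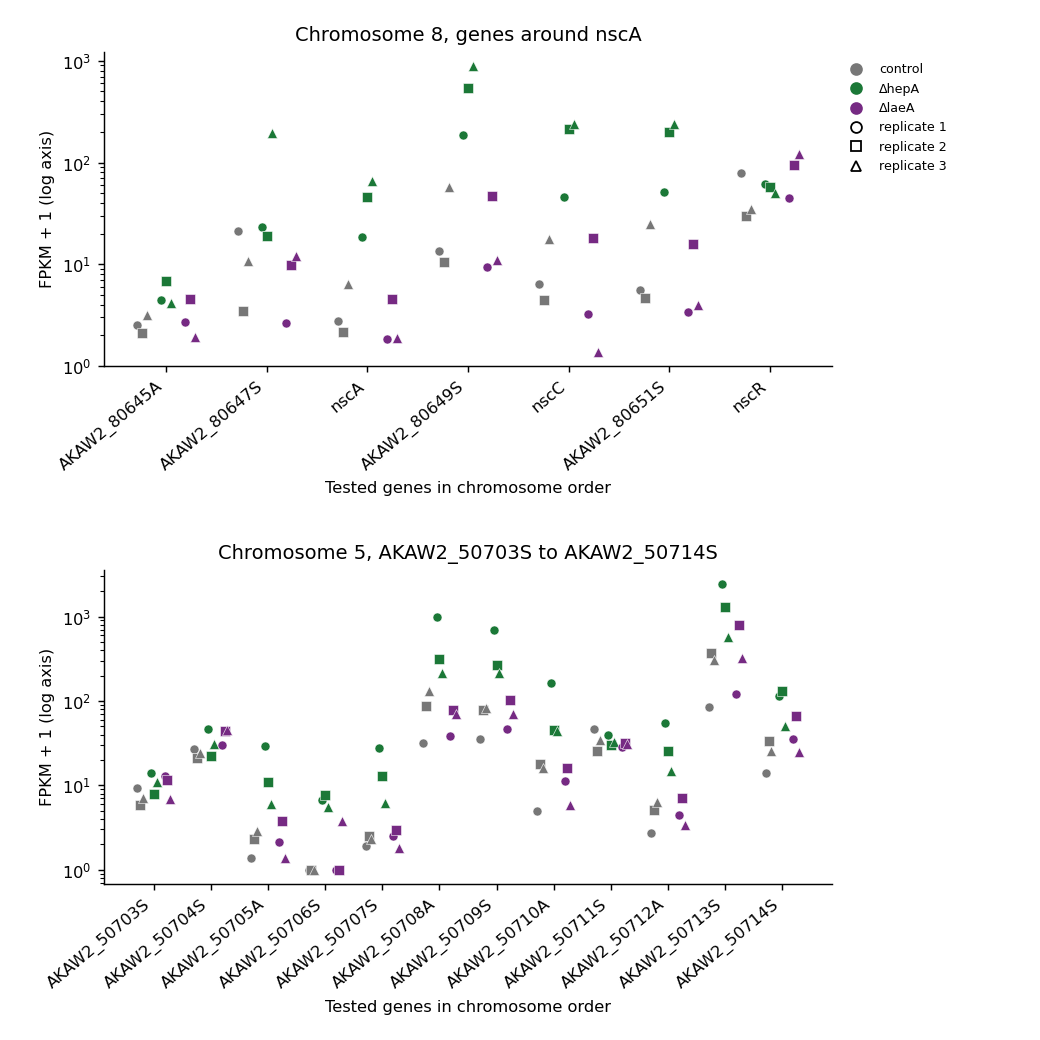
FPKM + 1 on a log axis for tested genes in chromosome order around nscA on chromosome 8 (top) and from AKAW2_50703S to AKAW2_50714S on chromosome 5 (bottom), by library. Each point is 1 library of the control, ΔhepA or ΔlaeA. Within both runs the ΔhepA points lie above the ΔlaeA points, while nscR and AKAW2_50711S overlap.

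Of the 18 tested genes in a list of secondary metabolite symbols, 7 were higher and 11 lower in ΔlaeA, none was called, and the median difference was -0.05, the same as over all tested genes. Apart from nscA and nscC, fma-AT, the symbol of an acyltransferase of the A. fumigatus fumagillin cluster, did not overlap. fma-AT had 14.8, 4.09 and 8.39 FPKM in ΔhepA and 0.29, 1.28 and 3.26 in ΔlaeA, with 20.1, 8.73 and 4.52 in the control (-1.97, limma adjusted p = 0.458). fma-PKS, with the symbol of the polyketide synthase of that cluster, had 2.88, 2.24 and 2.9 FPKM in ΔhepA and 2.74, 7.85 and 3.12 in ΔlaeA, which overlapped. Without the 3 libraries that lay apart, the list's median was -0.29 against 0.06 over all genes, and among those 3 libraries alone it was 0.0049 against 0.05.

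Of 15 tested genes for asexual and sexual development, 5 were higher and 10 lower in ΔlaeA, with a median of -0.38 and no call. abaA, a transcription factor needed for conidiophore development in A. nidulans, had 25.9, 19.3 and 16.6 FPKM in ΔhepA, 7.62, 4.28 and 4.71 in ΔlaeA, and 12.4, 23.6 and 35.3 in the control. The ΔlaeA libraries lay below both other strains, and the difference was -1.74 (SE 0.35; limma adjusted p = 0.284). CON10, the symbol of a gene expressed during conidiation in Neurospora crassa, had 162, 146 and 101 FPKM in ΔlaeA, 58.6, 30.3 and 41.8 in ΔhepA, and 46.6, 30.1 and 48.4 in the control. All ΔlaeA libraries exceeded the 6 others (1.64, SE 0.33, limma adjusted p = 0.284). In RNA from whole cultures, fewer cells of a kind and less RNA per cell cannot be told apart. brlA, the regulator upstream of abaA in A. nidulans, was low throughout, at 2.4, 0.99 and 1.81 FPKM in ΔhepA and 1.64, 3.77 and 2.06 in ΔlaeA, and overlapped. wetA, which acts in spore maturation, had 11.2, 5.23 and 8.16 FPKM in ΔhepA and 13.5, 5.85 and 3.86 in ΔlaeA and overlapped too. The list's median was 0.08 without the 3 libraries that lay apart, so its sign turned without them.

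Among the other genes with a symbol and no overlap, argB, which encodes ornithine carbamoyltransferase of arginine synthesis, had 359, 588 and 233 FPKM in ΔlaeA, 118, 154 and 131 in ΔhepA, and 82.1, 138 and 143 in the control (1.45, SE 0.35, limma adjusted p = 0.410). ARN1_2, with the symbol of a yeast siderophore transporter, had 45.1, 59.2 and 21.6 FPKM in ΔlaeA and 9.47, 10.5 and 17.1 in ΔhepA (1.62, limma adjusted p = 0.451). Both had their control libraries among or near the ΔhepA values. LSM6, a subunit of a ring of RNA-binding proteins in splicing and mRNA decay, had 58.8, 64.2 and 110 FPKM in ΔlaeA and 8.59, 25.3 and 27.8 in ΔhepA (1.96, limma adjusted p = 0.395). ugd2 had 17, 15.1 and 20.3 FPKM in ΔlaeA and 7.22, 6.56 and 7.93 in ΔhepA (1.16, limma adjusted p = 0.451), an even step in all libraries. EXG3 showed the smallest of these differences, 0.95 (limma adjusted p = 0.526), with 37.5, 55.8 and 38.5 FPKM in ΔlaeA and 19.5, 21.5 and 25.1 in ΔhepA.

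In the other direction, pmcB, the symbol of a calcium-transporting ATPase in Aspergillus, had 117, 68.4 and 60.9 FPKM in ΔhepA and 42.4, 14.4 and 21.2 in ΔlaeA (-1.70, limma adjusted p = 0.437). PLR1_2, with the symbol of a fission yeast pyridoxal reductase, had 191, 90.4 and 132 FPKM in ΔhepA and 70.3, 57.4 and 42.5 in ΔlaeA (-1.23, limma adjusted p = 0.454). Both lay below the control range in every ΔlaeA library. scw4, the symbol of a yeast cell wall glucanase-like protein, had 5.13, 1.8 and 3.3 FPKM in ΔhepA and 0.47, 0 and 0.44 in ΔlaeA (-1.71, limma adjusted p = 0.373). eng2, an endo-beta-glucanase symbol, had 18.4, 4.03 and 4.52 FPKM in ΔhepA and 1.44, 3.06 and 1.56 in ΔlaeA (-1.47, limma adjusted p = 0.609). Both genes belonged to a list of 37 tested cell wall genes, of which 9 were higher and 28 lower in ΔlaeA (median -0.26), without a call. That median was 0.05 without the 3 libraries that lay apart.

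**Figure D4:**
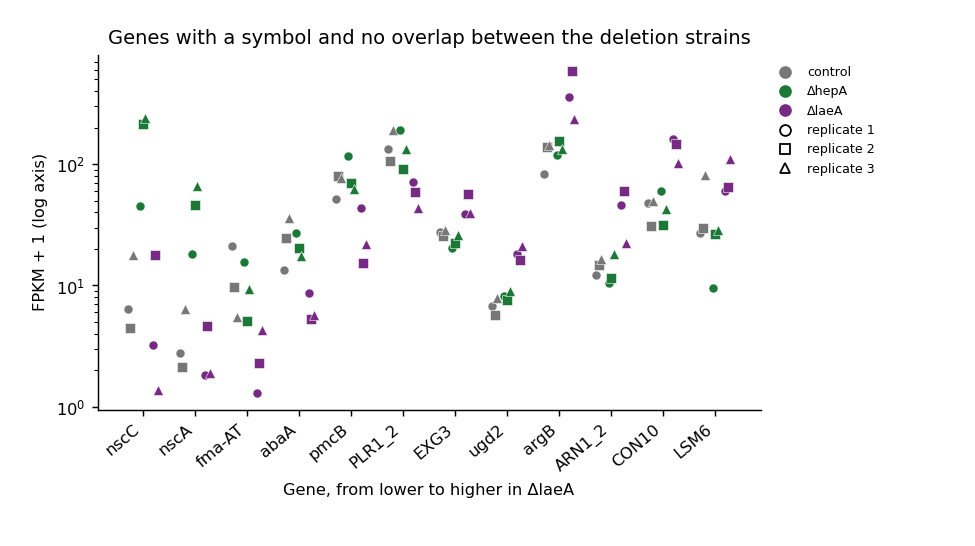
FPKM + 1 on a log axis, by library, for 12 uncalled genes with a symbol that did not overlap between the deletion strains. They had the smallest unadjusted p-values, 6 in each direction, among such genes with a group mean of at least 5 FPKM. Each point is 1 library of the control, ΔhepA or ΔlaeA, and genes run from the lowest to the highest difference. CON10 and argB lie near the control in ΔhepA and above it in ΔlaeA, and nscA and nscC lie near the control in ΔlaeA and above it in ΔhepA.

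In 24 lists of symbols for pathways, complexes and cell functions, no member was called, against 0.0517% of all tested genes. Leaving out 1 library turned the sign of the median in 14 of these lists in at least 1 fit, and 10 kept it in all 6. Ribosome biogenesis factors process ribosomal RNA and assemble ribosomal subunits. Of 83 tested members, 10 were higher and 73 lower in ΔlaeA, with a median of -0.67 beside -0.05 for all tested genes, and 7 lower members and 1 higher member had an unadjusted limma p under 0.05 (3.19% and 4.45% of all tested genes). BUD20, a yeast pre-60S export factor by its symbol, had 192, 135 and 182 FPKM in ΔhepA and 135, 59.3 and 48.3 in ΔlaeA (-1.19, limma adjusted p = 0.571). rrp36 had 621, 250 and 350 FPKM in ΔhepA, 250, 160 and 164 in ΔlaeA, and 147, 212 and 233 in the control (-1.01, limma adjusted p = 0.599). NOP10, a member of the box H/ACA ribonucleoprotein, went against its list with 195, 204 and 132 FPKM in ΔlaeA and 145, 89.2 and 89.9 in ΔhepA, which overlapped (0.72). The mean log2(FPKM + 1) of the list was 6.84, 5.63 and 6.15 in ΔhepA, 6.10, 5.22 and 5.44 in ΔlaeA, and 5.41, 6.19 and 6.20 in the control. ΔhepA replicate 1 stood above all other libraries, and the control spread covered most of the remaining values. Leaving out 1 library gave medians from -1.01 (without ΔhepA replicate 2) to -0.32 (without ΔhepA replicate 1). The list's median was -0.37 without the 3 libraries that lay apart and -0.32 among those alone, below that of all genes (0.06 and 0.05) both times.

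Ribosomal protein genes themselves did not share this. Of 56 tested members, 36 were higher and 20 lower in ΔlaeA, with a median of 0.11 that turned to -0.06 with TPM scaling and to -0.07 with the nuclear protein-coding genes alone rescaled, where the median of all genes moved to -0.20 and -0.22. RPL29 had 1509, 1629 and 1534 FPKM in ΔlaeA and 1185, 885 and 890 in ΔhepA (0.67, limma adjusted p = 0.592). RPS28A had 180, 144 and 164 against 128, 58.3 and 78.8 (0.94, limma adjusted p = 0.592). The 5 members without overlap were all higher in ΔlaeA, beside 7.72% of all tested genes that were higher without overlap. Of the 15 RNA polymerase I and III genes, 4 were higher and 11 lower (median -0.27). Without ΔhepA replicate 1 that median was 0.021, and among the 3 libraries that lay apart it was 0.14.

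Chromatin and velvet regulators, the functions to which HepA and LaeA belong, held 60 tested genes, of which 13 were higher and 47 lower in ΔlaeA, with a median of -0.36. No member had an unadjusted limma p under 0.05, beside 7.64% of all tested genes. veA, the velvet partner of LaeA in A. nidulans, had 23.2, 11 and 17.9 FPKM in ΔhepA, 16.7, 11 and 7.24 in ΔlaeA, and 33.3, 37.6 and 32.4 in the control. The deletion strains overlapped, and each of their libraries lay below the control range (difference -0.55). clrD, the histone H3 lysine methyltransferase whose mark heterochromatin protein 1 binds, had 5.66, 6.68 and 4.46 FPKM in ΔhepA and 6.55, 8.09 and 7.65 in ΔlaeA (0.36) and overlapped. rmtA, an arginine methyltransferase, had 92.2, 43.6 and 46.3 FPKM in ΔhepA and 58.1, 22.2 and 24.4 in ΔlaeA (-0.83, limma adjusted p = 0.689). The median of the list was 0.02 without the 3 libraries that lay apart and -0.13 among them, and it ran from -0.63 without ΔlaeA replicate 1 to -0.081 without ΔlaeA replicate 3. With the mitochondrial share as a covariate the median was 0.0092, with 31 higher and 29 lower, beside 0.066 over all tested genes. The part of these libraries in the lower median was not tested beyond these fits. Of 6 tested histone genes, 5 were higher in ΔlaeA (median 0.30, and 4 of 6 with quantile or TPM scaling). Without ΔlaeA replicate 1 or without ΔhepA replicate 1 they split 3 and 3, with medians of 0.0095 and 0.11. HHF1_2, a histone H4 symbol, had 269, 239 and 294 FPKM in ΔlaeA and 145, 218 and 180 in ΔhepA (0.57, limma adjusted p = 0.651).

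Several lists had medians below that of all genes, which turned positive or near 0 without the 3 libraries that lay apart. Ergosterol synthesis had 5 higher and 20 lower of 25 tested genes (median -0.38, and 0.18 without them). The tricarboxylic acid cycle and citrate list had 5 higher and 16 lower of 21 (median -0.24, and 0.17 without them). This includes mcsA, methylcitrate synthase, with 35.6, 53.4 and 42.2 FPKM in ΔhepA and 23, 34.7 and 35.4 in ΔlaeA (-0.49, limma adjusted p = 0.725). Unlike the list's median, mcsA stayed lower in ΔlaeA without the 3 libraries that lay apart (-0.73) and among those alone (-0.59). Siderophore and iron genes had 3 higher and 9 lower of 12 (median -0.50, -0.07 without them and -0.22 among those libraries alone). The chaperone list had 6 higher and 24 lower of 30 (median -0.11, and 0.09 without them).

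Lists with medians near or above that of all genes included carbon use. Of 12 genes for acetate, ethanol and fermentation, 7 were higher and 5 lower in ΔlaeA (median 0.24, which turned to -0.083 without ΔhepA replicate 1). coaT had 144, 246 and 210 FPKM in ΔlaeA and 90.5, 148 and 101 in ΔhepA, both below the control at 846, 644 and 307 (0.81, limma adjusted p = 0.620). For starch and sugar breakdown, 7 genes were higher and 7 lower (median -0.06). AMY1, an alpha-amylase symbol and thus of the enzyme class that saccharifies starch, had 551, 529 and 656 FPKM in ΔhepA, 887, 310 and 332 in ΔlaeA, and 1306, 1192 and 1022 in the control. The deletion strains overlapped there, and every one of their libraries lay below the control range. Glycolysis had 4 higher and 6 lower of 10 (median -0.05, and 0.28 without the 3 libraries that lay apart). The respiratory chain list had 22 higher and 18 lower of 40 (median 0.04), the proteasome 16 and 9 of 25 (0.04) and autophagy 14 and 6 of 20 (0.13). These 3 medians turned negative with TPM scaling (-0.13, -0.13 and -0.03) and with the nuclear genes alone rescaled. In both fits they stayed above the median of all genes, which was -0.20 and -0.22. The first 2 also turned negative with quantile normalization. Nitrogen use (median -0.14), proteases (-0.01), antioxidant enzymes (-0.10), DNA replication and repair (-0.07) and sugar transporters (-0.20) had medians between -0.20 and -0.01. With quantile normalization the medians of proteases, of DNA replication and repair, of starch and sugar breakdown and of the secondary metabolite genes turned slightly positive, and that of proteases did so with median-ratio scaling too.

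Of 9 tested mitochondrially encoded protein genes in a list that left out orf2, 2 were higher and 7 lower in ΔlaeA (median -0.79). Most had low FPKM, and the median was -0.28 with a pseudocount of 5 and -0.0086 over the 5 genes with a mean of at least 5 FPKM. Yet the share of all mitochondrial genes in total FPKM was highest in ΔlaeA replicates 2 and 3. The share came from orf2 and the ribosomal RNA gene EJ508_mgr02, which together made 98.6% to 99.6% of the mitochondrial FPKM in each of the 9 libraries. orf2 had 12040, 21030 and 13930 FPKM in ΔhepA and 7735, 29050 and 70310 in ΔlaeA, which overlapped. Its difference was 0.72 (limma adjusted p = 0.782), against the direction of most of the list. cox2, a cytochrome c oxidase subunit, had 7.57, 19.1 and 11.1 FPKM in ΔhepA and 3.48, 7.32 and 5 in ΔlaeA and did not overlap (-1.07, limma adjusted p = 0.622). atp6 did not overlap either, at 2.12, 1.62 and 1.49 FPKM in ΔhepA and 0, 1.1 and 0 in ΔlaeA (-1.09, limma adjusted p = 0.598). atp9 went the other way, with 29.2, 256 and 466 FPKM in ΔlaeA and 11.4, 47.6 and 68 in ΔhepA, overlapping (2.15, limma adjusted p = 0.660). Mitochondrial mRNAs of yeast are known to lack poly(A) tails, and these libraries were made from poly(A)-enriched RNA.

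**Figure D5:**
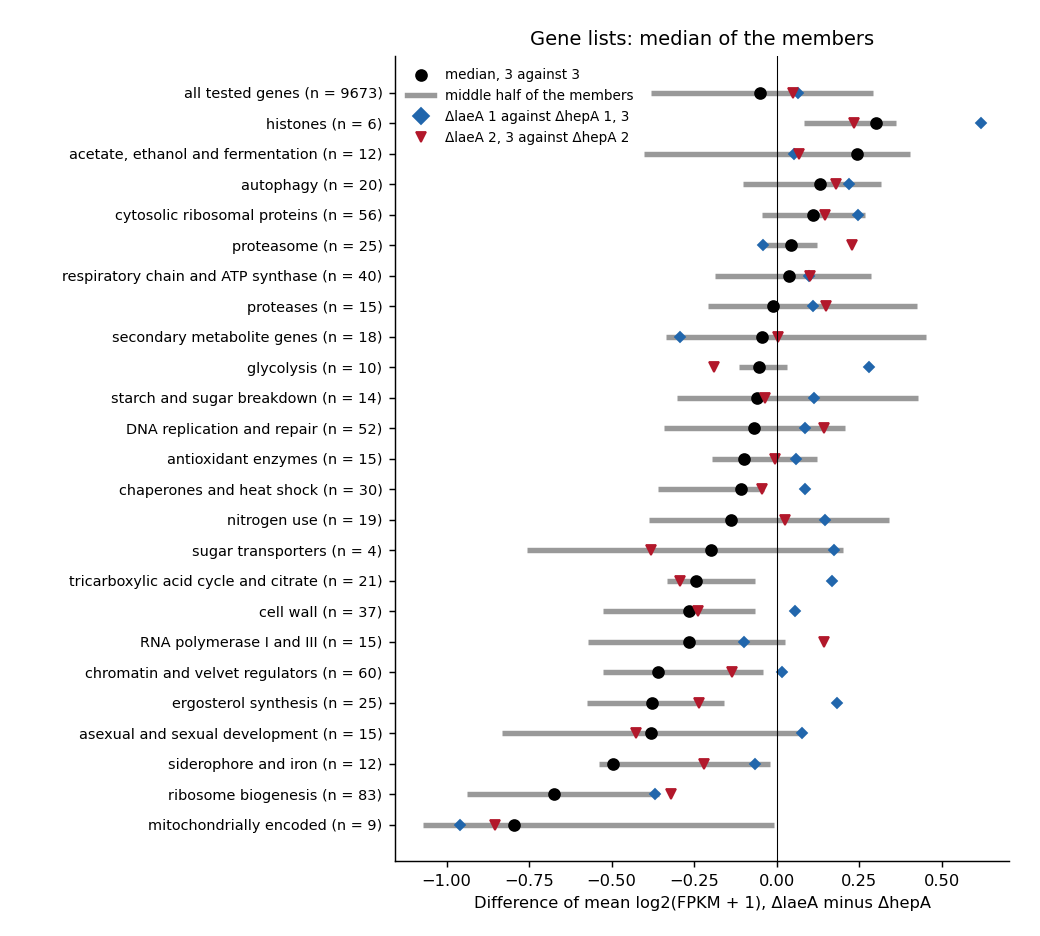
Median difference of mean log2(FPKM + 1), ΔlaeA minus ΔhepA, for all tested genes and 24 gene lists. The black point is the median over members with all 6 libraries, the grey bar spans the lower to the upper quartile of the members, and the blue and red points are the medians without the 3 libraries that lay apart and among those 3 alone. Ribosome biogenesis, the siderophore and iron list and the mitochondrially encoded list, which leaves out orf2, stay below 0 in all 3. Ergosterol synthesis and the chromatin regulators lie at or above 0 without the libraries that lay apart.

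The fission yeast HP1 homologue is known to bind near chromosome ends, so the genes within 100 kb of the first or last annotated gene of a chromosome were described as well. Of 630 such genes 315 were tested, of which 178 were higher and 137 lower in ΔlaeA, with a median of 0.13 beside -0.05 over all genes. With TPM scaling the median turned to -0.011, beside -0.20 over all genes. Without the 3 libraries that lay apart it was 0.069, close to the 0.063 over all genes. Among those 3 libraries alone it was 0.14 beside 0.05. Of these genes 1 was called, beside 0.0517% of all tested genes. It was AKAW2_21600A, lower in ΔlaeA, a short gene that passed the filter only through the ΔhepA libraries. Without overlap, 40 were higher and 24 lower, beside 7.72% and 4.68% of all tested genes. The 351 genes without overlap and with a difference of at least 1 were found on all 8 nuclear chromosomes, from 2.59% of tested genes on chromosome 2 to 4.97% on chromosome 6. The mitochondrial genome added 2 of its 12 tested genes, both lower in ΔlaeA.

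The control strain shows which deletion strain lay nearer to it, as a description only, since it was not part of the test. Of the 177 genes that were higher in ΔlaeA without overlap and by at least 1, the control mean was nearer to ΔhepA in 127 (71.8%). Of the 174 that were lower, it was nearer to ΔhepA in 109 (62.6%). Over all 9673 tested genes it was nearer to ΔhepA in 6235 (64.5%), so the lower genes were close to the background share. CON10, argB, abaA and AKAW2_51607S were of the kind with the control nearer ΔhepA, whereas both neighbour runs, and AKAW2_80200S, had it nearer ΔlaeA.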

How the data were processed

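Poly(A)-enriched RNA was made into stranded libraries, per the labels' protocols. The authors deposited 1 table of FPKM values, named for RSEM, with a column per library. RSEM 1.3.1, STAR 2.7.9a, featureCounts 2.0.1, cutadapt 3.7, Trimmomatic 0.39, Trim Galore 0.6.7 and FastQC 0.11.9 are named, with no role or order, per the submitters' processing notes; genome build and strand setting are not given in the sources used here. FPKM values are scaled to each library's own total, so abundant transcripts can lower all others. They are not counts, so no count test was used. Symbols and coordinates came from the table and a reference table that matched all 12941 genes.

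Tested genes reached 1 FPKM or more in 3 or more of the 6 libraries and were fitted as log2(FPKM + 1) by limma 3.58.1 (R 4.3.3) with group means and a mean trend (4 residual degrees of freedom). Tests were two-sided, with Benjamini-Hochberg adjustment over 9673 genes and a threshold of 0.05. This scale understates differences of low genes. An exact permutation test of 3 against 3 cannot go below 0.1. The fit was also run on simulated data with independent noise in each gene. Those data lacked differences between libraries that many genes share, as on component 1, so no conclusion is drawn from them. Genes of like length, used for the smallest values, lay within 10% of the gene's length.

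Members, gene lists and rules were chosen with earlier results of these data known. Named were the called genes and, of those not called without overlap and with a group mean of at least 5 FPKM, the 6 smallest p-values per direction with a symbol and 4 without, up to 2 members per list, and runs of at least 4 neighbours. List members named besides, flanking genes and mitochondrial genes were chosen after their values were seen. Alternative fits used all 9 libraries, no trend, the replicate block, each library in turn left out, median-ratio, quantile or TPM scaling, a mean filter (5 FPKM), no filter, or pseudocounts of 0.1 and 5. Further fits, chosen after seeing the data, dropped or kept only the 3 libraries apart on component 1, took the mitochondrial share as covariate, or rescaled the nuclear protein-coding genes alone. Tables and plots used matplotlib 3.10.9, scipy 1.17.1, pandas 2.3.3, numpy 2.4.6 and Python 3.11.15.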

Additional observations from a re-analysis of the deposited data

How the results depend on the processing

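The count of called genes was 5 and depended on most settings. It was 0 with a pseudocount of 5, with no filter and with TPM scaling, where 750, 864 and 900 genes had an unadjusted limma p under 0.05. It was 1 with a mean of at least 5 FPKM, with median-ratio scaling, with quantile normalization and with the mitochondrial share as a covariate, and AKAW2_80200S was that gene each time. It was 8 without the mean trend, and within 1.5 times of 5 with a pseudocount of 0.1 (4), all 9 libraries (5) and nuclear protein-coding genes alone (6). Leaving out 1 library gave from 0 to 78 calls. Both the fit that dropped the 3 libraries that lay apart and the fit on those alone called 0, with 661 and 593 genes at an unadjusted p under 0.05; fewer samples entered these fits. The replicate block gave 10 calls (2 higher, 8 lower in ΔlaeA). Among them were nscA, AKAW2_80649S and AKAW2_80651S (limma adjusted p = 0.0294, 0.0230 and 0.0230). nscC and AKAW2_80647S of that run were not called (limma adjusted p = 0.0737 and 0.156). The labels do not state that the numbers pair the libraries. Deviations of same-numbered libraries correlated at 0.442, 0.301 and -0.227. ΔlaeA replicates 1 and 2 correlated best with the same-numbered ΔhepA libraries, and replicate 3 with ΔhepA replicate 2 (0.44). So few libraries cannot decide whether the numbers pair them. Of the 75 genes taken by the naming rule, RGT1 (a sugar transporter list member) alone changed sign, from -0.59 to 0.0465 without the 3 libraries that lay apart. Of the genes named besides, differences near 0 or with overlap also turned there: nscR to -0.32, AKAW2_81092S to -0.16, fma-PKS to -0.057, orf2 to -0.74, brlA to -0.23, AMY1 to 0.56, wetA to 0.46 and AKAW2_50703S from -0.069 to 0.052. The cause was not tested. Low values limit precision too: in short genes the steps were coarsest in ΔlaeA replicates 2 and 3.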
